A study of Mus musculus with 568 samples.

Results

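XGFPhigh and XGFPintermediate cells were flow-sorted from reconstituted ovaries (rOvaries) by the brightness of a GFP reporter on one X chromosome, among cells positive for a tdTomato reporter on the other (Xtomato+). Of 552 wells in the single-cell tables, 26.1% were labelled XGFPhigh and 26.1% XGFPintermediate, both grown from primordial germ cell-like cells (PGCLCs) that had been GFP negative (XGFP-) before aggregation. A well was kept when it showed 4000 or more detected genes and 10000 or more reads, with no more than 5% of them mitochondrial. This left 87.8% of the labelled wells, which are 52.1% of the 486 wells kept in the series. The comparison was made first within 1 sequencing lane (lane 3), whose wells fall into 4 blocks of 96 consecutive index numbers. The blocks held 27, 28, 28 and 28 XGFPhigh wells and 28, 31, 30 and 23 XGFPintermediate wells. A second lane (lane 2) added 14 and 16 wells. XGFPlow wells, also from rOvaries of XGFP- PGCLCs (25, 27, 28 and 26 per block), are quoted only for the order of the levels.

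The mouse embryonic stem cell line behind all groups is a female hybrid of 129S1/SvImJ and CAST/EiJ. Its 129S1/SvImJ X (X mus) carries a Tsix truncation and a GFP reporter in Hprt, and its CAST/EiJ X (X cas) carries a tdTomato reporter in Hprt. Doxycycline induces transgenic Prdm1, Prdm14 and Tfap2c in these cells. PGCLCs of day 5 were sorted as SSEA1+, CD61+ and XGFP-. They were cultured for 6 days with 75000 somatic cells from the gonads and mesonephros of E13.5 female embryos. No label says how many rOvaries or clones gave the wells. Each sorted population therefore counted as 1 sample, and no test between the populations was possible. The intervals given cover counting error only, and amplified reads without molecular identifiers make even these too narrow. The 4 blocks hold different wells of the same sort labels, and no label says whether they share a sort, a plate or an rOvary. Their spread, given beside the values, includes which cells fell into each block and is no measure of biological replicates.

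In female mice, primordial germ cells first silence one X chromosome with the somatic lineage and then switch it on again as they settle in the gonad. In the fetal ovary, retinoic acid and BMP signals then raise Stra8 and a programme of meiotic prophase genes, while Nanog, Pou5f1 and other pluripotency genes are shut off. Ddx4 is an RNA helicase of the germ line that comes on in the gonad, and Sycp3 is a structural protein of the axis of meiotic chromosomes. The GFP reporter has its own insulated CAG promoter within Hprt on X mus and so reads whether X mus is active at that place, not the Hprt gene itself, and the sort selected on it.

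Promoters of 4 genes on which the comparison turns are printed here because the levels of these genes separate or grade the sorted populations. They run from 250 bases before to 50 after the annotated start (RefSeq, GRCm38.p6) and are written 5′ to 3′ on the gene's strand. Capitals mark CACGTG (the core of an E-box, the same on both strands), GCGGGAA (a motif of the E2F type) and AGGTCA (a nuclear receptor site), the latter pair searched on both strands, with no overlap among them. Ddx4 lies at chr13:112652261-112652560 on the minus strand, Sycp3 at chr10:88459337-88459636, Stra8 at chr6:34920698-34920997 and the first of 2 Nanog promoters at chr6:122707239-122707538, these 3 on the plus strand.
Ddx4: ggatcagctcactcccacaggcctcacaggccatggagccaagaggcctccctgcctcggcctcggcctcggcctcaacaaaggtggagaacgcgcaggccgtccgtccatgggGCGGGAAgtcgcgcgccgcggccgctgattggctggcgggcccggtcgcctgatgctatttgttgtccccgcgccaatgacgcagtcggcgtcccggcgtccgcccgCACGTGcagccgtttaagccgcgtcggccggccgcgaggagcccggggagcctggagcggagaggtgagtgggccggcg
Sycp3: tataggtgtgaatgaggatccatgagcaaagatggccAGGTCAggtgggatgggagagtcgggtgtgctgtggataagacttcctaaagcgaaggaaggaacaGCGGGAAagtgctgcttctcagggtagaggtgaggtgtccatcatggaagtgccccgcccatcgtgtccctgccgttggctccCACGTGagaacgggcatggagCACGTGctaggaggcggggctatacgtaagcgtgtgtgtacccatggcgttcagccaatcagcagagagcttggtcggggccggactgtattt
Stra8: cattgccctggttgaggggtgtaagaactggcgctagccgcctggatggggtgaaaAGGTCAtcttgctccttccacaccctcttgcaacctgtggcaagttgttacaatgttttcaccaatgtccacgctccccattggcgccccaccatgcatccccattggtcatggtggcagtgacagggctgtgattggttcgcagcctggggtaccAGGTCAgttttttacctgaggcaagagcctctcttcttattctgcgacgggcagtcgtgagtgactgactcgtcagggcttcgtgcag
Nanog: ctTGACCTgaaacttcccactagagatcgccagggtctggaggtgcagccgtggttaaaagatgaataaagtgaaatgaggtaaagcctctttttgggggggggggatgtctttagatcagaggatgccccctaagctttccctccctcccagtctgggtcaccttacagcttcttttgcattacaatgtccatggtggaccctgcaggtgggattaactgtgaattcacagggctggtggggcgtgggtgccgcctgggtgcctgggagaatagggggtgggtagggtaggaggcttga
The Ddx4 window held 1 E-box core and 1 E2F-type motif, and the Sycp3 window held 2 E-box cores, 1 E2F-type motif and 1 nuclear receptor site. The Stra8 window held 2 nuclear receptor sites and neither of the others, and the Nanog window held 1 nuclear receptor site. Over the measured genes of the meiotic, meiotic cohesin and germ line lists described after the markers, 47 of 55 had a promoter entry, and 13 of the 47 (27.7%) held the E-box core, against 8.09% of the 27025 genes with an entry. The E2F-type motif was found for 16 of the 47 (34.04%), against 5.29% of all genes, and the nuclear receptor site for 5 of the 47 (10.6%), against 18.1%. Of the pluripotency lists, 17 of 27 genes had an entry, and the E-box core, the E2F-type motif and the nuclear receptor site were found for 0, 1 and 4 of them. These shares describe letters in a window and were not tested. The 27025 genes include many that were not measured here, unlike the list genes.

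Kept wells of lane 3 had a median of 626233 reads in XGFPhigh and 627194 in XGFPintermediate, empty wells of this lane held at most 14 reads, and no pair of kept wells had identical counts. After thinning every well to 50000 reads, the median well showed 6172 genes in XGFPhigh and 5864 in XGFPintermediate (8143 and 7236 unthinned). The block medians of XGFPhigh (6112 to 6210) lay above those of XGFPintermediate (5606 to 5968). Dazl, an RNA-binding protein that marks gonadal germ cells, passed the limit described with the markers in 93.7% of XGFPhigh and 91.96% of XGFPintermediate wells, so most wells of both labels were germ cells by this marker. In XGFPlow 74.5% of wells passed it, so XGFPlow levels and shares include a larger part of wells without Dazl. Among XGFPintermediate wells without it, 4 held 1000 CPM or more over the list of 21 somatic gonad markers and 3 others held as much over 9 endothelial and blood markers, and no XGFPhigh well did. In XGFPhigh the summed somatic gonad markers reached 207.4 CPM at most, with 3 of 21 at 0 in every well, and in XGFPintermediate 37006 CPM, with 1 of 21 at 0. All wells carry the label Xtomato+. Where the ratio of a gene with a printed value differs by more than 1.5 times in wells with Dazl, that value is given too.

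The 3 marker genes differed between the populations, with Nanog higher in XGFPhigh and Ddx4 and Sycp3 higher in XGFPintermediate. Levels are CPM, the reads of a gene per 1000000 reads over all wells of a population summed. A well counted as positive when ln(1 + counts per 10000) exceeded 1, that is above 171.8 CPM. Where a pair of levels is given, XGFPhigh stands first and XGFPintermediate second, with the log2 ratio of the former over the latter in parentheses. Nanog, a core pluripotency factor (chromosome 6, 122707489 to 122714633), stood at 231.9 CPM in XGFPhigh (95% Poisson interval 228.3 to 235.4) and at 23.1 CPM in XGFPintermediate (21.95 to 24.2), a log2 ratio of 3.33. In XGFPhigh its 4 blocks lay at 180.3, 198.7, 300.6 and 242.1 CPM. In XGFPintermediate they lay at 20.04, 15.7, 34.4 and 23.8 CPM. The blocks did not overlap. Single XGFPhigh wells ran from 0 to 1305 CPM with a median of 133.6, and single XGFPintermediate wells from 0 to 317.3 CPM with a median of 0. Nanog was positive in 50 XGFPhigh wells (45.05%, 35.6 to 54.8, exact binomial 95% interval) and in 3 XGFPintermediate wells (2.68%, 0.556 to 7.63). XGFPlow wells lay between, at 43.3 CPM and 8 positive wells (7.55%, 3.31 to 14.3), an interval that overlaps that of XGFPintermediate. In lane 2 Nanog was less apart, at 76.8 and 47.5 CPM (0.69), with 1 XGFPintermediate well holding 85.9% of the reads of its population.

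Ddx4 (chromosome 13, 112598333 to 112652475) stood at 113.6 CPM in XGFPhigh (111.1 to 116.1) and 389 CPM in XGFPintermediate (385 to 394), a log2 ratio of -1.78. Its XGFPhigh blocks lay at 160.8, 137.1, 47.3 and 113.4 CPM. Its XGFPintermediate blocks lay at 454, 396, 388 and 303.6 CPM. All of the latter exceed the former. The median well held 15.3 CPM in XGFPhigh and 285.1 CPM in XGFPintermediate. Ddx4 was positive in 11 XGFPhigh wells (9.91%, 5.05 to 17.04) and in 74 XGFPintermediate wells (66.1%, 56.5 to 74.8). XGFPlow wells again lay between, at 186.7 CPM and 37 positive wells (34.9%, 25.9 to 44.8), here with intervals apart from both. XGFPlow held a larger share of wells without Dazl than either population. In lane 2 the ratio was -0.50.

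Sycp3 (chromosome 10, 88459569 to 88473236) stood at 217.7 CPM in XGFPhigh (214.2 to 221.1), 494 CPM in XGFPintermediate (489 to 499) and 102.1 CPM in XGFPlow. The log2 ratio of XGFPhigh over XGFPintermediate was -1.18, but the blocks overlapped: they lay at 446, 234.99, 9.35 and 209.4 CPM in XGFPhigh and at 768, 443, 209.8 and 629 CPM in XGFPintermediate. A few wells carried the XGFPhigh level: the block at 9.35 CPM held 0 positive wells and the others 2 each. Sycp3 was positive in 6 XGFPhigh wells (5.41%, 2.01 to 11.4), and the 12 highest wells held 95.1% of its XGFPhigh reads, against 63.04% for the 12 highest XGFPintermediate wells. In XGFPintermediate 39 wells were positive (34.8%, 26.1 to 44.4), and the median wells held 59.04 CPM there and 9.88 CPM in XGFPhigh. By these measures XGFPlow lay between, unlike its summed level, with a median well of 21.5 CPM. Its 15 positive wells (14.2%, 8.14 to 22.3) had an interval that overlaps that of XGFPhigh. In lane 2 the summed Sycp3 level was reversed, with 125.7 CPM in 14 XGFPhigh wells and 58.4 CPM in 16 XGFPintermediate wells (log2 ratio 1.11). A single XGFPhigh well of lane 2 held 91.01% of those reads, and the median well held 9.92 CPM in XGFPhigh and 51.3 CPM in XGFPintermediate, in the order of lane 3.

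**Figure D1:**
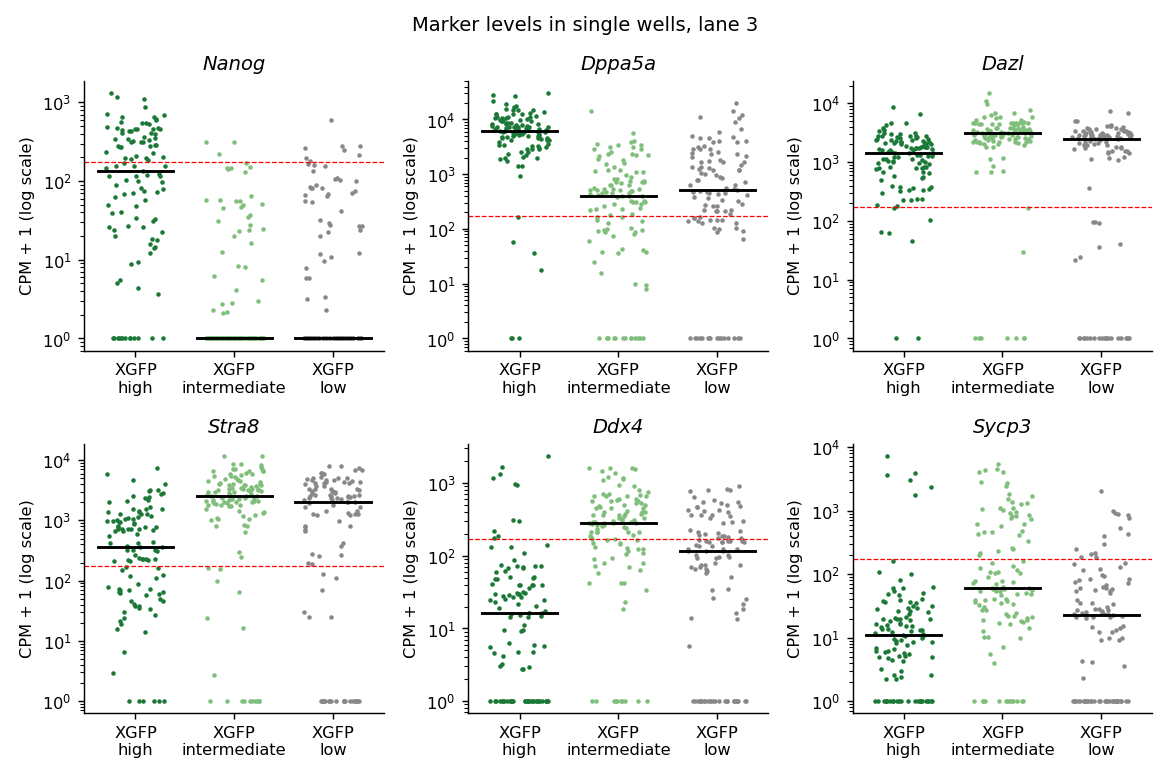
CPM + 1 on a log scale of 6 genes in every kept XGFPhigh, XGFPintermediate and XGFPlow well of lane 3. Black bars are medians and the red dashed line is the limit for a positive well; Nanog lies above the limit in 50 XGFPhigh wells and 3 XGFPintermediate wells, and 6 XGFPhigh wells stand apart at high Sycp3.

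At the limit for a positive well, Nanog and the later markers were rarely positive together. Reads were not confined to positive wells. At least 1 Nanog read was found in 98 XGFPhigh wells, of which 50 were positive, and at least 1 Ddx4 read in 80, of which 11 were positive. In XGFPintermediate only 3 wells were positive for Nanog, too few to judge how it goes with the others. Nanog without Ddx4 or Sycp3 was found in 50 XGFPhigh wells and 2 XGFPintermediate wells. Ddx4 together with Sycp3 was found in 6 XGFPhigh wells (5.41%, 2.01 to 11.4) and 36 XGFPintermediate wells (32.1%, 23.6 to 41.6), and Ddx4 alone in 5 and 37 wells. A single XGFPintermediate well (0.893%, 0.0226 to 4.87) was positive for Nanog and Ddx4, and 0 XGFPhigh wells were, with an upper bound of 3.27%. A further 50 XGFPhigh wells and 33 XGFPintermediate wells passed none of the 3 limits. Across the XGFPintermediate wells, Ddx4 and Sycp3 went together with a Spearman rho of 0.70, against 0.23 across the XGFPhigh wells. The wells of each correlation, all those kept in lane 3, share a sort label and a lane and differ in depth, so the values are descriptions.

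Over all genes, 8686 had a mean of at least 10 CPM over both populations. Of these, 489 (5.63%) were at least 2-fold higher in XGFPhigh and 953 (11%) at least 2-fold lower, and the 4 XGFPhigh blocks lay wholly above those of XGFPintermediate for 980 genes (11.3%) and wholly below for 1620 (18.7%). The median log2 ratio of all 8686 genes was -0.21. Scaling with TMM factors added 0.26 to every ratio and gave 761 genes 2-fold higher and 578 lower, so the split between the directions turned with the scaling, and ratios within about 0.26 below 0 change sign under it. Lists are read against the median of -0.21, and their counts against the shares of all genes given here.

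In lane 3 pluripotency genes were higher in XGFPhigh almost throughout. Of the mitotic germ cell and core pluripotency list, 21 of 22 genes were measured, 13 were at least 2-fold higher and 0 lower, the median log2 ratio was 1.29, and the blocks did not overlap for 17 genes, all higher in XGFPhigh. Dppa5a, an RNA-binding protein of pluripotent and early germ cells, stood at 7183 CPM in XGFPhigh and 933 CPM in XGFPintermediate. Its blocks ran from 5649 to 9089 CPM and from 562 to 1770 CPM, without overlap. The median XGFPhigh well held 6232 CPM and the median XGFPintermediate well 402 CPM. Dppa3, a maternal factor and early germ cell marker, differed less, at 1030 and 650 CPM (0.66), as did Ifitm3 at 807 and 503 CPM (0.68), with a lane 2 ratio of -0.09. Tdgf1, a co-receptor for Nodal, stood at 48.5 and 3.31 CPM (3.87), but at -0.46 in lane 2, and at 45.5 and 0.137 CPM (8.37) over wells with Dazl. The exception below 0 was Kit, the receptor for stem cell factor, at -0.06, which TMM scaling turned to 0.20. In lane 2 the median of this list was 0.18, with 14 genes above 0 and 7 below.

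All 9 measured genes of the naive pluripotency list (of 13) were at least 2-fold higher in XGFPhigh, with a median log2 ratio of 2.03. Zfp42 stood at 980 CPM in XGFPhigh and 146.9 CPM in XGFPintermediate. Its blocks ran from 641 to 1180 CPM and from 90.9 to 260.5 CPM. Klf2, a Krüppel-like factor, followed at 221.8 and 30.8 CPM (2.85), or 4.05 over wells with Dazl. Nr0b1, an X-linked nuclear receptor of naive stem cells (chromosome X, 86191764 to 86195947), had 145.7 CPM (142.9 to 148.6) against 1.604 CPM (1.32 to 1.93), a log2 ratio of 6.51. At least 1 Nr0b1 read was found in 69 XGFPhigh wells and in 7 XGFPintermediate wells. The 3 genes that also exist as transgenes, Prdm1, Prdm14 and Tfap2c, were higher in XGFPhigh, at 33.8 and 13.9 CPM (1.29), 61.5 and 27.5 CPM (1.16) and 76.4 and 16.05 CPM (2.25), and counts do not separate the endogenous from the transgenic copies. In lane 2 the naive list had a median of 0.93, with 7 genes above 0 and 2 below, and the Prdm14 ratio was reversed (-0.63).

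Meiotic and germ line genes were lower in XGFPhigh. Of the germ line and piRNA list, 16 of 23 genes were measured, with 10 at least 2-fold lower, 1 at least 2-fold higher and a median log2 ratio of -1.54. Dazl stood at 1629 and 3291 CPM (-1.01), with blocks from 1519 to 1993 CPM and from 3019 to 3688 CPM, which did not overlap. The Dazl ratio was -0.75 with TMM scaling and -0.05 in lane 2. Mov10l1, an RNA helicase of the piRNA pathway, stood at 19.9 and 109.2 CPM (-2.45), and Rbm46, an RNA-binding protein needed for meiosis, at 21.04 and 112.8 CPM (-2.42). The member at least 2-fold higher was Tdrd12, a Tudor-domain protein of the same pathway, at 111.3 and 53.6 CPM (1.05). Blocks lay apart for 9 lower members and for Tdrd12.

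Meiotic entry regulators showed 9 of 16 measured genes (of 20) at least 2-fold lower and 1 at least 2-fold higher, with a median of -1.02. Stra8, the retinoic acid-induced gatekeeper of meiosis (chromosome 6, 34920163 to 34939344), stood at 859 CPM in XGFPhigh (852 to 866), 2977 CPM in XGFPintermediate (2964 to 2990) and 2349 CPM in XGFPlow. Its XGFPhigh blocks lay at 1437, 791, 781 and 561 CPM. Its XGFPintermediate blocks lay at 3181, 2747, 2973 and 3122 CPM. The blocks did not overlap. Stra8 was not absent from XGFPhigh: 71 wells were positive (63.96%, 54.3 to 72.9), against 95 XGFPintermediate wells (84.8%, 76.8 to 90.9). Cyp26a1, which degrades retinoic acid, stood at 23.8 and 136.1 CPM (-2.52), and Id2, a target of BMP signalling, at 3.597 and 43.1 CPM (-3.58), or -2.94 over wells with Dazl. Msx2, another BMP-responsive gene, went the other way at 22.4 and 5.67 CPM (1.98).

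Of the synaptonemal complex and axis list, 14 of 19 genes were measured, 9 were at least 2-fold lower in XGFPhigh and 0 higher, and the median was -1.25. The blocks lay apart for 3 of the 14, Hormad2, Syce1 and Sun1. This is near the share of all 8686 genes with XGFPhigh blocks wholly below (18.7%). Sycp1, the transverse filament protein, stood at 231.6 and 566 CPM (-1.29), and Sycp2, of the lateral element, at 97.6 and 443 CPM (-2.18). The median well held 6.36 CPM of Sycp1 in XGFPhigh and 105.1 CPM in XGFPintermediate. For genes of break formation and recombination, 13 of 22 measured genes (of 30) were at least 2-fold lower and 0 higher, with a median of -1.23. Blocks lay apart for 6 of the 22, to be read against the same 18.7%. Tex15, needed for recombination and piRNA function, stood at 166.7 and 549 CPM (-1.72), and Zcwpw1, a reader of the histone marks set by Prdm9, at 76.8 and 319.02 CPM (-2.05).

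Summed over its 15 genes in the table, the axis list came to a median of 954 CPM per XGFPhigh well (quartiles 717 and 1230) and 1751 CPM per XGFPintermediate well (1069 and 5432). The highest wells of the populations reached 23100 and 23980 CPM. In lane 2 the median log2 ratio of this list was 0.70 and that of the recombination list 0.33, both reversed. A single XGFPhigh well of lane 2 was the source of 81.5% of the Sycp1 reads, 97.5% of the Sycp2 reads, 75.7% of the Tex15 reads and 99.8% of the Tex101 reads of its 14 wells, and it was the same well that led for Sycp3. The germ line and piRNA list (-0.28), the entry regulators (-0.36) and the meiotic cohesins (-0.27) were closer to 0 in lane 2 with the same sign. With TMM scaling, 9 germ line and piRNA genes, 7 entry regulators, 7 axis genes and 10 recombination genes were at least 2-fold lower. In the same order 1, 2, 0 and 0 were at least 2-fold higher.

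Cohesin, the ring complex that holds sister chromatids, has meiotic and mitotic subunits. Of the 4 meiotic subunits, 3 were at least 2-fold lower in XGFPhigh with blocks apart: Stag3 at 63.7 and 298.3 CPM (-2.23), Smc1b at 277.3 and 1171 CPM (-2.08) and Rec8 at 32.8 and 102.6 CPM (-1.65). Smc1b blocks ran from 94.2 to 439 CPM in XGFPhigh and from 590 to 1688 CPM in XGFPintermediate. Smc1b was positive in 27 XGFPhigh wells (24.3%, 16.7 to 33.4) and 94 XGFPintermediate wells (83.9%, 75.8 to 90.2). All 5 mitotic subunits stayed within 2-fold with overlapping blocks, from Smc3 at -0.42 to Stag2 at 0.54. The difference between the 2 sets was not tested.

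Of 40 measured S phase genes (of 42), 5 were at least 2-fold higher in XGFPhigh and 1 lower, with a median of 0.18, and TMM scaling gave 7 higher, 0 lower and a median of 0.44. The higher ones were led by Cdca7 at 231.7 and 99.7 CPM (1.22) and Rrm2, a subunit of ribonucleotide reductase, at 639 and 275.2 CPM (1.22). The lower one was Ccne2, cyclin E2, at 76.3 and 166.1 CPM (-1.12), within 2-fold under TMM scaling. Of 52 genes of G2 and mitosis, 1 was at least 2-fold higher and 0 lower, with a median of -0.05 that TMM scaling turned to 0.21. The gene past 2-fold was Psrc1, a spindle protein, at 67.3 and 9.07 CPM (2.89), while Top2a, which untangles replicated DNA, stood at 481 and 604 CPM (-0.33).

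Glycolysis genes were higher in XGFPhigh, with 13 of 18 measured members (of 20) at least 2-fold higher, 1 lower and a median of 1.47. Blocks lay apart for 14, all higher in XGFPhigh. Gapdh stood at 6426 and 2251 CPM (1.51), Ldha, lactate dehydrogenase, at 3174 and 917 CPM (1.79), and Eno1, enolase, at 2770 and 715 CPM (1.95). Slc2a3, a glucose transporter, stood at 534 and 41.2 CPM (3.70), with blocks from 423 to 677 CPM and from 34.98 to 62.6 CPM. It was positive in 84 XGFPhigh wells (75.7%, 66.6 to 83.3) and in 4 XGFPintermediate wells (3.57%, 0.982 to 8.89). Within the XGFPhigh wells of lane 3 Slc2a3 went with Nanog at a Spearman rho of 0.69, a description over wells of 1 sort label that differ in depth. The member at least 2-fold lower was Aldoc, a minor aldolase, at -1.02, which TMM scaling brought to -0.76.

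Genes of the ATF4 response were also higher in XGFPhigh, with 6 of 11 measured members (of 19) at least 2-fold higher, 0 lower and a median of 1.01. Asns, asparagine synthetase, stood at 1050 and 409 CPM (1.36), and Psat1, of serine synthesis, at 356.4 and 106.7 CPM (1.74), while Atf4 itself stood at a ratio of 0.32. In the DNA methylation list, 8 of 10 genes were measured, 3 at least 2-fold higher and 0 lower. The list median was 0.70 in lane 3 and -0.07 in lane 2, where 3 genes lay above 0 and 5 below. Dnmt3l, the cofactor of the de novo methyltransferases (chromosome 10, 78041947 to 78063622), stood at 162.7 CPM (159.8 to 165.7) against 3.59 CPM (3.16 to 4.06), a log2 ratio of 5.50. Its blocks ran from 77.96 to 207.7 CPM and from 1.87 to 6.52 CPM. The other 2 were Tet2 (1.46, but -0.04 in lane 2) and Tet1 (1.01), which oxidise methylcytosine, while Dnmt1, which maintains methylation, stood at -0.15, or 0.11 with TMM scaling. Of 19 measured p53 targets and cell death genes (of 22), 5 were at least 2-fold higher and 0 lower, with a median of 0.56 that was -0.18 in lane 2. Pmaip1, a pro-apoptotic protein, stood at 29.3 and 4.75 CPM (2.62).

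**Figure D2:**
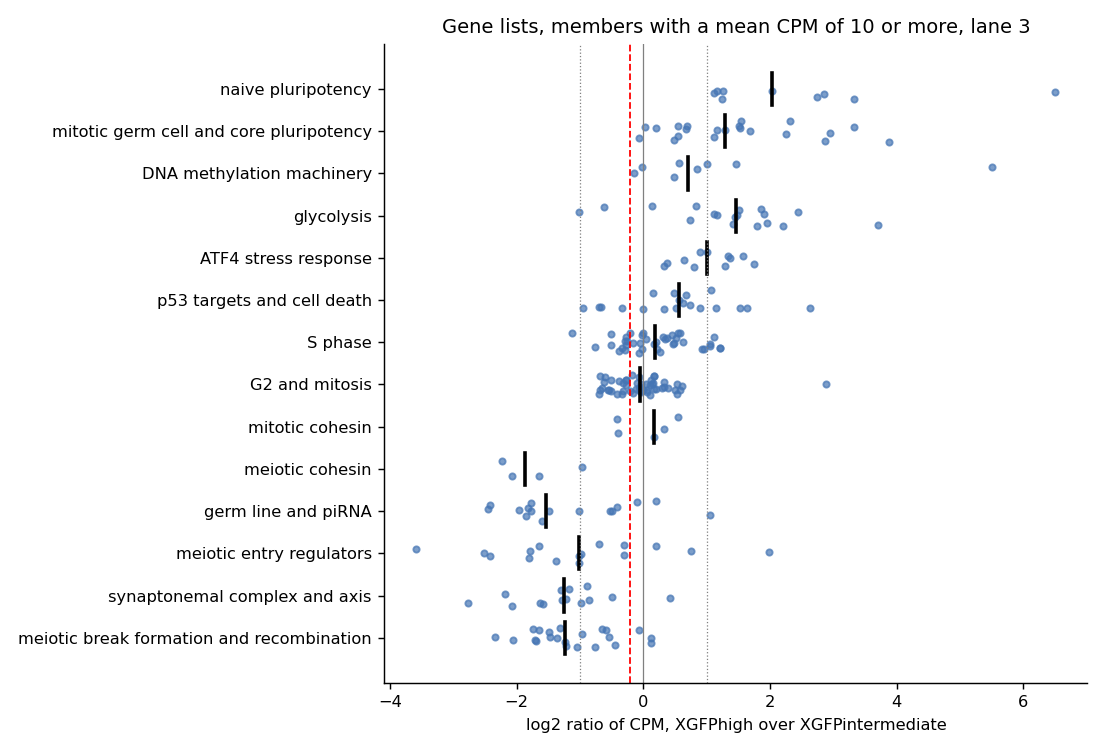
Log2 ratio of CPM, XGFPhigh over XGFPintermediate, for each measured member (mean CPM of at least 10) of the gene lists in lane 3. Black bars are list medians, the red dashed line is the median of all 8686 genes (-0.21) and dotted lines mark 2-fold; the pluripotency lists lie to the right (medians 2.03 and 1.29) and the meiotic and germ line lists to the left (-1.02 to -1.86).

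Of the 2323 genes with a mean of at least 50 CPM, a read in at least 20% of wells and the same direction in all 4 blocks, the 10 highest ratios belonged to Nr0b1, Trh, Dnmt3l, Slc7a3, Mobp, Aqp3, Bcat1, Slc2a3, Elf3 and Triml2, from 6.51 down to 3.62. Within wells with Dazl, Mobp came to 5.47 and Bcat1 to 4.58, from 4.63 and 3.92. Of the 10, 2 (Nr0b1 and Slc7a3) are X-linked. Of the 8686 measured genes 7516 are annotated to autosomes, and the rest include more genes without an annotated chromosome than X-linked genes. Trh, the precursor of thyrotropin-releasing hormone, stood at 167.2 CPM (164.2 to 170.2) against 2.86 CPM (2.48 to 3.28). Slc7a3, a transporter of cationic amino acids (chromosome X, 101079210 to 101086020), stood at 540 CPM (535 to 546) against 12.4 CPM (11.6 to 13.2), and was positive in 73 XGFPhigh wells and 2 XGFPintermediate wells. Its XGFPhigh blocks lay at 350.5, 495, 764 and 532 CPM and its XGFPintermediate blocks at 4.73, 5.64, 30.6 and 8.48 CPM. All 10 ratios had the same sign in lane 2.

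The 10 lowest ratios belonged to Igfbp4 (-4.79), Igfbp3 (-4.33), B2m (-2.97), Ptp4a3 (-2.78), Ccdc79 (-2.77), Egr1 (-2.71), Cyp26a1 (-2.52), Mov10l1 (-2.45), Rbm46 (-2.42) and Anxa2 (-2.42). Of these, 0 are X-linked, which is no finding where 7516 of the 8686 measured genes are annotated to autosomes and only a part of the rest is X-linked. Ccdc79 (also called Terb1), which tethers meiotic telomeres, and Cyp26a1, Mov10l1 and Rbm46 are meiotic or germ line genes. Over wells with Dazl their ratios were -2.84, -2.57, -2.57 and -2.37. Igfbp3 and Igfbp4, secreted binders of insulin-like growth factors, came from few wells, since the 12 highest XGFPintermediate wells held 96.5% and 95.6% of their reads. Over wells with Dazl, Igfbp3 came to -0.23 and Igfbp4 to -1.18, and Anxa2, a membrane-binding annexin, to -0.38. B2m, the light chain of MHC class I, came to -2.07, Ptp4a3, a phosphatase, to -1.60 and Egr1, an immediate early gene, to -2.42 over those wells. Egr1 was positive in 1 XGFPhigh well and 22 XGFPintermediate wells.

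**Figure D3:**
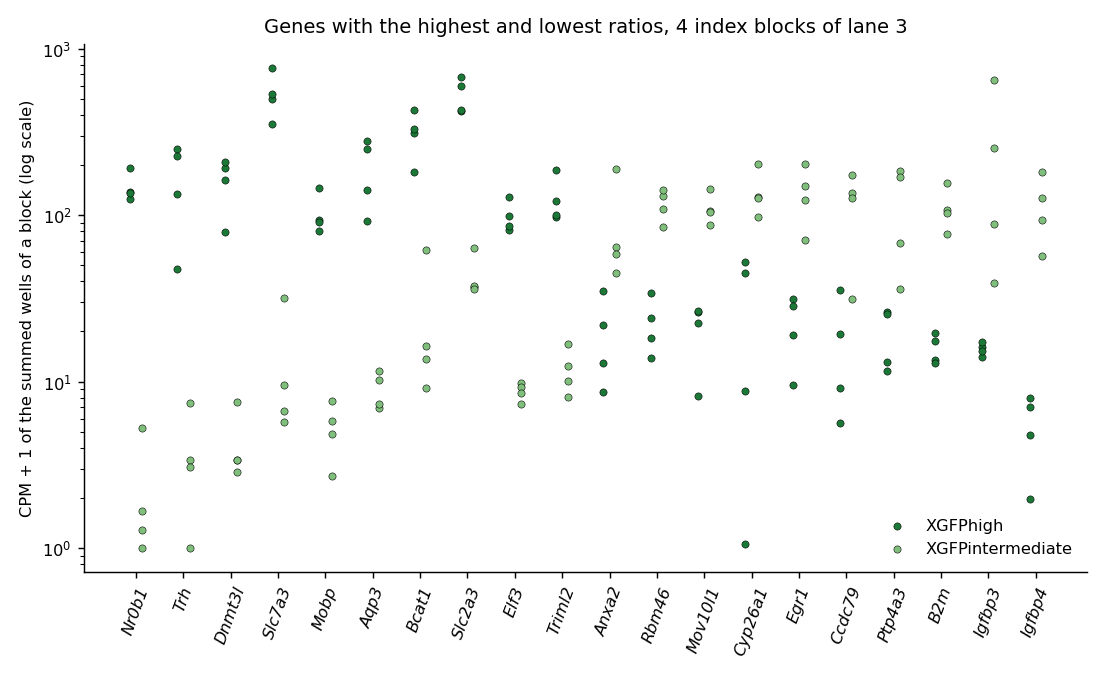
CPM + 1 on a log scale of the 10 genes with the highest and the 10 with the lowest ratios, 1 point for each of the 4 index blocks of lane 3 in each population. XGFPhigh points lie above XGFPintermediate points for the 10 highest genes, and below for the 10 lowest except Ccdc79, whose blocks overlap.

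X-linked genes were higher in XGFPhigh as a class. The X held 6.07% of the X-linked and autosomal reads in the median XGFPhigh well (quartiles 5.67 and 6.49), 4.47% in the median XGFPintermediate well (4.06 and 5.39) and 3.998% in the median XGFPlow well. Block medians ran from 5.71% to 6.26% in XGFPhigh and from 4.35% to 4.81% in XGFPintermediate. Of the measured X-linked genes, 73 (20.98%) were at least 2-fold higher in XGFPhigh and 27 (7.76%) lower, against 4.98% and 11.1% of 7516 autosomal genes. The median log2 ratio was 0.19 on the X and -0.22 on the autosomes, and in lane 2 it was 0.44 and -0.13. TMM scaling shifts both by the same amount and leaves the gap between them as it is. Xist, the RNA that coats the inactive X, was low in both, at 18.1 CPM in XGFPhigh and 16.4 CPM in XGFPintermediate with overlapping blocks (0.14), and 33.8 CPM in XGFPlow. Over wells with Dazl, Xist stood at 17.99 CPM in XGFPhigh and 6.24 CPM in XGFPintermediate (1.53), and without wells with collagen reads its ratio was 1.04. At least 1 Xist read was found in 59 XGFPhigh, 23 XGFPintermediate and 31 XGFPlow wells. Tsix was not in the count table.

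The deposited allelic ratios give, per cell, the share of allele-specific reads from the mus allele of X-linked genes, with 38.6% of entries empty. All kept XGFPhigh wells and 105 of the XGFPintermediate wells in lane 3 had ratios. The read depth behind a ratio is unknown. The mean mus share per cell had a median of 0.473 in XGFPhigh (quartiles 0.452 and 0.491, lowest 0.0396, highest 0.681). In XGFPintermediate the median was 0.340 (0.313 and 0.385, lowest 0.0615, highest 0.477), and in XGFPlow it was 0.299 over 79 cells. Block medians ran from 0.471 to 0.477 in XGFPhigh and from 0.330 to 0.353 in XGFPintermediate, and lane 2 gave 0.470 and 0.329. A mean share of at least 0.4 was reached by 99 XGFPhigh cells (89.2%, 81.9 to 94.3), 15 XGFPintermediate cells (14.3%, 8.22 to 22.5) and 3 XGFPlow cells (3.797%, 0.790 to 10.7). Shares under 0.1 were found in 1 XGFPhigh, 1 XGFPintermediate and 11 XGFPlow cells. The 11 XGFPlow cells and the XGFPintermediate cell held 0 CPM of Dazl, so they were not germ cells by this marker. The XGFPhigh cell held 1033 CPM of Dazl. Since the gate read GFP from a reporter on X mus, the order of the populations is in part what the sort chose.

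**Figure D4:**
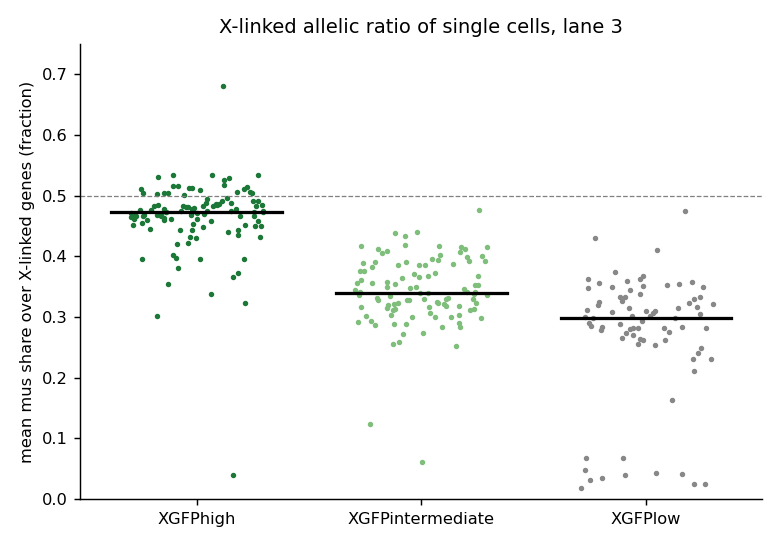
Mean mus share over X-linked genes of each cell with ratios in lane 3, for XGFPhigh, XGFPintermediate and XGFPlow. Black bars are medians (0.473, 0.340 and 0.299) and the dashed line marks equal shares (0.5); 1 XGFPintermediate cell lies at or above the lower quartile of XGFPhigh.

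By gene, among those with a ratio in at least 20 cells of each population, 84.8% had a higher mean mus share in XGFPhigh and 31 genes a lower one, with a median difference of 0.116. A difference of at least 0.1 was found for 55.4% of the genes in this direction and for 1 gene (0.49%) in the other. The 4 blocks lay apart for 81 genes (39.7%) higher in XGFPhigh and 1 (0.49%) lower, Piga. No gene had a mean share of 0.1 or less in XGFPhigh, 27 did in XGFPintermediate and 59 in XGFPlow. Those 27 genes had a median share of 0.0417 in XGFPintermediate and 0.393 in XGFPhigh (0.178 to 0.511). The next groups, 47 genes up to 0.3 and 47 up to 0.4, had medians of 0.210 and 0.366 in XGFPintermediate and 0.443 and 0.482 in XGFPhigh. The 83 genes over 0.4, at a median of 0.463, had a median of 0.495 in XGFPhigh. The median log2 ratio of the total level was 0.62 for the 27 genes and -0.10 for the 83 genes, the latter positive under TMM scaling. Genes were grouped by their XGFPintermediate share, so the step between the groups is a description.

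Hprt, which carries the reporters (chromosome X, 52988137 to 53021659), had a mean mus share of 0.469 in XGFPhigh, 0.217 in XGFPintermediate and 0.0656 in XGFPlow. Its total level stood at 169.9 and 189.2 CPM (-0.16), a ratio that became 0.11 with TMM scaling and 1.85 in lane 2. Its neighbours with ratios gave the same order: Phf6, 75.9 kb away by start, had 0.354 in XGFPhigh and 0.0737 in XGFPintermediate, Mospd1 0.486 and 0.315 with overlapping blocks, and Xlr, a lymphocyte and germ line gene, 0.244 and 0.0309. Another neighbour, 4930502E18Rik (737 kb away), had 0.377 in XGFPhigh and 0.0388 in XGFPintermediate, and its total level stood at 156.6 and 15.95 CPM (3.30). The 6 largest differences belonged to Efhc2, Tceal8, Gyk, Usp26, Fundc2 and AU022751, from 0.521 down to 0.423, all with blocks apart. Tceal8 stood at 0.459 over 85 XGFPhigh cells, with blocks from 0.413 to 0.581, and at 0.000952 over 30 XGFPintermediate cells, of which 96.7% had a share of 0. Efhc2 had 0.118 over 21 XGFPintermediate cells and 0.639 over 61 XGFPhigh cells. Gyk, a glycerol kinase, stood at 0.479 and 0.0357, and Usp26, a deubiquitinase, at 0.452 and 0.0198.

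Tex11, an X-linked meiotic recombination gene, had a mus share of 0.0744 over 96 XGFPintermediate cells and 0.307 over 81 XGFPhigh cells, while its total level was higher in XGFPintermediate (362.6 against 152.998 CPM in XGFPhigh), the reverse of lane 2 (0.78). Among the genes furthest in the other direction, Mbtps2, Ikbkg, Armcx5 and Piga were lower in XGFPhigh by 0.132 to 0.0708, with overlapping blocks except for Piga. Mbtps2, a protease that cleaves membrane-bound regulators, stood at 0.504 in XGFPintermediate and 0.372 in XGFPhigh over 31 cells each. The 6 genes known to escape X inactivation that had ratios were higher in XGFPhigh by 0.0238 to 0.116, from 2610029G23Rik (0.525 and 0.501) to Eif2s3x (0.582 and 0.466), with blocks apart for 2610029G23Rik and overlapping for the other 5. Within the 105 XGFPintermediate cells the mean mus share went with Stra8 at a Spearman rho of 0.33 and with Ddx4 at 0.28. Within the XGFPhigh cells both had the other sign, Stra8 at -0.14 and Ddx4 at -0.30. The cells of each population carry 1 sort label and differ in depth, and in counts this sparse these values are no finding.

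**Figure D5:**
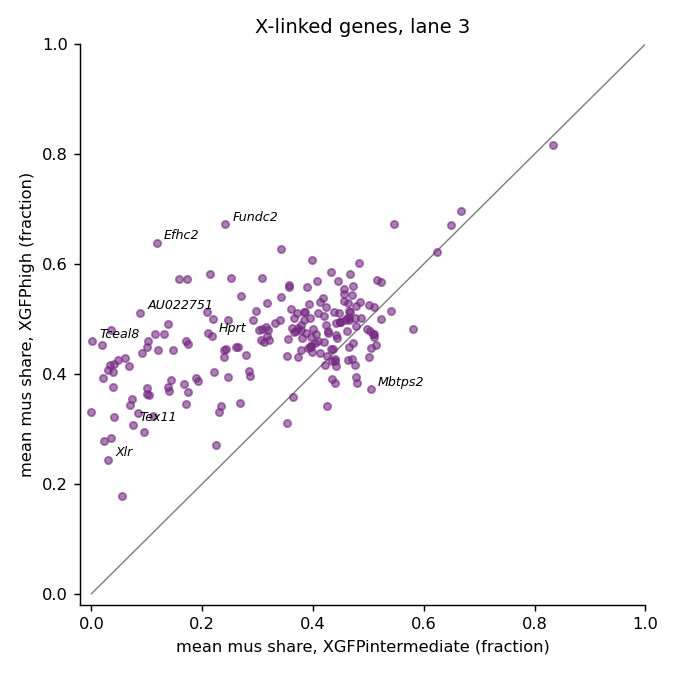
Mean mus share of X-linked genes with ratios in at least 20 cells of each population, XGFPintermediate on the x axis and XGFPhigh on the y axis, in lane 3. The line marks equal values; 84.8% of the genes lie above it, and the 27 genes at 0.1 or less in XGFPintermediate lie between 0.178 and 0.511 in XGFPhigh.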

How the data were processed

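Single cells were sorted into wells and sequenced full length without molecular identifiers. The authors aligned reads with STAR to mm10 and deposited raw read counts per gene and well (the submitters' processing notes name HTSeq 0.6.1). For X-linked genes they deposited an allelic ratio, a fraction of reads from the mus allele over both alleles, from alignments to a genome masked at strain SNPs. Bulk allelic fractions, also deposited, covered 51.5% of the X-linked genes used and were not compared here. The bulk normalised counts were not used, nor were 4 value columns of samples outside this series.

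Labels gave the groups. Well counts were summed per population (133101 to 1063549 reads per XGFPhigh well and 196230 to 1118366 per XGFPintermediate well, lane 3), divided by their total and compared as log2 ratios for genes with a mean of at least 10 CPM. A group at 0 was set to 3 counts. Calls are 2-fold changes. Intervals are 95% Poisson or exact binomial. No test was run between populations of 1 sample each, and no doublet caller was run on sorted wells. Analyses used Python 3.11.15, numpy 2.4.6, scipy 1.17.1, and edgeR 4.0.16 in R 4.3.3 for TMM factors only. The pooled ratio was tested on simulated data. Gene coordinates are from GENCODE vM21 (mm10), which matched 90.6% of the gene names. Index numbers of all 32 lane 2 wells recur in lane 3, where they name other wells.

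Members and gene lists were chosen with earlier results of these data known. Named genes were the 3 markers with Dazl, Xist, Tsix, Hprt and the 3 transgenes, the 4 members of each list with the highest mean CPM and the 2 with the largest ratio, the 10 highest and 10 lowest ratios among genes with a mean of at least 50 CPM, a read in at least 20% of wells and the same direction in 4 blocks, and 6 X-linked genes in each direction by mus share. Some genes that this rule names are not reported here. Other list members were named after their values were seen. Alternatives were lane 2, both lanes, the mean of well CPM, wells thinned to 50000 reads, TMM, wells with Dazl, other well and gene filters, other limits, and leaving out each block. Leaving out wells with collagen reads was added after seeing the data.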

Additional observations from a re-analysis of the deposited data

How the results depend on the processing

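The share of genes at least 2-fold higher or lower in XGFPhigh, 5.63% higher and 10.97% lower, was 8.76% higher and 6.65% lower with TMM factors (761 and 578 genes), 8.44% higher and 19.5% lower at a mean of 1 CPM (1099 and 2538 of 13023), 4.41% higher and 5.75% lower at 50 CPM (of 4086) and 10.2% higher and 21.5% lower with no filter (1516 and 3188 of 14854). A limit of 1.5-fold gave 11.7% higher and 26.7% lower (1012 and 2321 genes), 4-fold 1.69% higher and 2.05% lower, and blocks that do not overlap 11.3% higher and 18.7% lower. The log2 ratio of Nanog was 0.69 in lane 2, 2.96 over both lanes and 3.59 with TMM, and lane 2 gave -0.50 for Ddx4 and 1.11 for Sycp3. TMM brought Sycp3 to -0.92, within 2-fold. Of 87 other named genes past 2-fold, 17 were reversed under some alternative (18 of 1130 values). In lane 2 these were Prdm14 -0.63, Tdgf1 -0.46, Tex101 2.70, Sycp1 1.30, Sycp2 2.40, Tex15 2.40, Tex11 0.78, Figla 1.06, Tet2 -0.0380, Pfkp -0.75, Dusp1 -2.23, Plagl1 -0.17 and Gata3 -2.43, with list medians of 0.70 for the axis and 0.33 for recombination, and the cause was not tested. Over wells with Dazl they were Vim 2.57, Dcn 3.41, Col1a2 4.48, Kdr 1.04 and the somatic gonad median 3.41, an alternative that removes the wells with these reads, and without wells with collagen reads, chosen after seeing the data, Col1a2 came to 2.14. The difference in positive wells (XGFPhigh minus XGFPintermediate, percentage points) for Nanog was 55.9 at a limit of 0.5, 7.21 at 2, 53.5 at 1 read and 15.2 in lane 2. For Ddx4 it was -13.3 at 2, -18.999 at 1 read and -5.36 in lane 2, and for Sycp3 -39.2, -16.9, -10.01 and -5.36 in the order of Nanog. The difference in mus share per cell was 0.173 from the median over genes and 0.114 from genes with values in 50% of cells. Leaving out each block kept the 3 markers and the mus share within the block spread and the counts of genes within 1.5 times. Lane 2, with 14 and 16 wells, limits any statement on genes that few wells express. No paired analysis was possible because the replicate numbers name wells and no test was run between populations of 1 sample each.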

Other observations

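Imprinted genes, which are expressed from 1 parental copy, did not share a direction. Of 15 measured members (of 30), 5 were at least 2-fold higher in XGFPhigh and 3 lower, with a median of -0.11 that became 0.15 with TMM scaling. In wells with Dazl 7 were higher and 4 lower, and the median was 0.92. Impact stood at 208.9 and 44.5 CPM (2.23), Slc38a4, an amino acid transporter, at 169.5 and 42.9 CPM (1.98), and Snrpn, of the small nuclear ribonucleoproteins, at 344.03 and 130.97 CPM (1.39), all with blocks apart. Igf2, the fetal growth factor, stood at 1.67 and 54.04 CPM (-5.02), and Cdkn1c, a growth inhibitor, at 5.58 and 53.7 CPM (-3.27), and over wells with Dazl they came to -2.15 and -2.79. Plagl1 stood at 167.3 and 56.6 CPM (1.56), came to 3.37 over wells with Dazl and reversed in lane 2 (-0.17).

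Genes around MAPK signalling were also mixed, with 4 of 9 measured members (of 16) at least 2-fold higher and 3 lower, and a median of -0.75. In wells with Dazl 4 were higher and 1 lower, and the median was 0.57. Etv5 stood at 100.03 and 14.3 CPM (2.80), the X-linked Klhl13 at 211.8 and 50.96 CPM (2.06) and the X-linked phosphatase Dusp9 at 40.1 and 15.8 CPM (1.35), all with blocks apart. Fos stood at 12.5 and 64.1 CPM (-2.35), and came to -0.69 over wells with Dazl. Of the contractile and keratin list, 1 of 10 measured genes (of 20) was at least 2-fold higher and 4 lower, with Ctgf at 69.4 and 7.596 CPM (3.19) and Vim at 34.8 and 155.3 CPM (-2.16), the latter reversed over wells with Dazl (2.57). Over those wells 3 of this list were higher and 2 lower, and its median of -0.89 became 0.20. Of the dissociation response list, 1 of 9 measured genes (of 14) was at least 2-fold higher and 4 lower, the higher one being Dusp1 at 110.5 and 34.4 CPM (1.68), which reversed in lane 2 (-2.23). In wells with Dazl 1 was higher and 1 lower, and the median of -0.45 became -0.04. Epcam, an epithelial adhesion protein and the measured member of the mesonephros list, stood at 71.1 and 201.3 CPM (-1.50) with blocks apart. Over wells with Dazl its ratio was -1.55. The other 6 members of that list summed to at most 54.5 CPM in any XGFPhigh well and 53.3 CPM in any XGFPintermediate well. Of the oocyte programme, 5 of 20 genes were measured, with Ooep at 110.5 and 23.1 CPM (2.26) and Figla at 8.61 and 36.9 CPM (-2.10), the latter reversed in lane 2 (1.06). Of 2 measured genes of the early mesoderm and somatic differentiation list (of 15), Pax6 stood at 9.56 and 24.9 CPM (-1.38) and Dnmt3b at 30.4 and 16.98 CPM (0.84), and of the endothelial and blood list Pecam1 stood at 66.7 and 52.04 CPM (0.36). Of 8 measured escape genes (of 14), 1 was at least 2-fold lower, the stromal gene Bgn (-5.02, and -0.92 over wells with Dazl), and 0 were higher. The 4 measured somatic gonad genes (of 22) were lower in XGFPhigh, with Dcn at 0.453 and 209.96 CPM (-8.86), and at 0.485 CPM against 0 over wells with Dazl, and Col3a1 at 0 reads against 254.7 CPM.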
